A study of Saccharomyces cerevisiae with 59 samples.

Results

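The earliest interval of a synchronous release was described by setting the values deposited for 10 min after release from α-factor against those for 0 min, the arrested culture. All 5590 genes of the deposited tables entered the comparison, each with an RNA level, a gene-body nucleosome score, a gene-body entropy and a promoter subnucleosome score. Of the 59 libraries of the series, 8 lie behind these columns, namely 2 total RNA-seq and 2 MNase-seq libraries at each of the 2 times. MNase-seq maps the DNA that nucleosomes and other bound proteins protect from micrococcal nuclease.

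Both times came from the same W303 budding yeast strain, of mating type MATa. It carries BAR1::TRP and URA3::BrdU-Inc, and its other alleles are ade2-1, his3-11,15, can1-100 and leu2-3,112. Cultures grew in YPD at 30 °C. The 10 min cells had been washed and moved into fresh YPD, so that loss of pheromone, washing and new medium cannot be told apart in any difference below. The 0 min cells were taken after 2 h in α-factor at 50 ng/mL, just before that wash. Because Replicate 1 recovered more slowly, the aligned 10 min column holds its library labelled 20 min together with the library of Replicate 2 labelled 10 min. One label conflict touches the column, since for Replicate 2 the 10 min MNase-seq library has a description placing it before release and a treatment label placing it after, and it was used by its time label.

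α-factor is the mating pheromone of α cells. In MATa cells it binds the receptor Ste2 and acts through a G protein and a MAP kinase cascade on the transcription factor Ste12, which turns on mating genes, while the inhibitor Far1 holds the G1 cyclin-dependent kinase and the cell waits before Start. When the pheromone is gone, the G1 cyclins free the factors SBF (Swi4 with Swi6) and MBF (Mbp1 with Swi6) from repression, and the genes for budding, DNA synthesis and histones follow.

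Each column merges its replicates, so no standard deviation and no test between the 2 times could be had, and every comparison here is a description of merged values. RNA differences are on the log2(TPM + 1) scale, 10 min minus 0 min, and a gene is called higher (or said to have risen) or lower (or to have fallen) at a difference of 2-fold or more. Levels are shares of the RNA sequenced, so that fewer transcripts per cell and fewer transcribing cells cannot be told apart. The 10 min and 0 min RNA columns summed to 949828 and 983736 over the listed genes.

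RNA differed at 10 min in both directions. At 10 min 538 genes were called higher, which is 9.62% of those measured, and 244 were called lower, which is 4.36%. The higher class reached further. There were 102 genes up 4-fold or more and 31 up 8-fold or more, against 21 genes down 4-fold or more, and the extremes were 7.12 for TOS6 and -2.68 for PRM6. Another 2312 genes stayed within 1.2-fold and the median difference was 0.04. Scaling the columns to equal upper quartiles lowered all differences by a median of 0.12 and changed the calls to 441 higher and 337 lower, so that 56.7% of the calls were higher, against 68.8% without it.

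**Figure D1:**
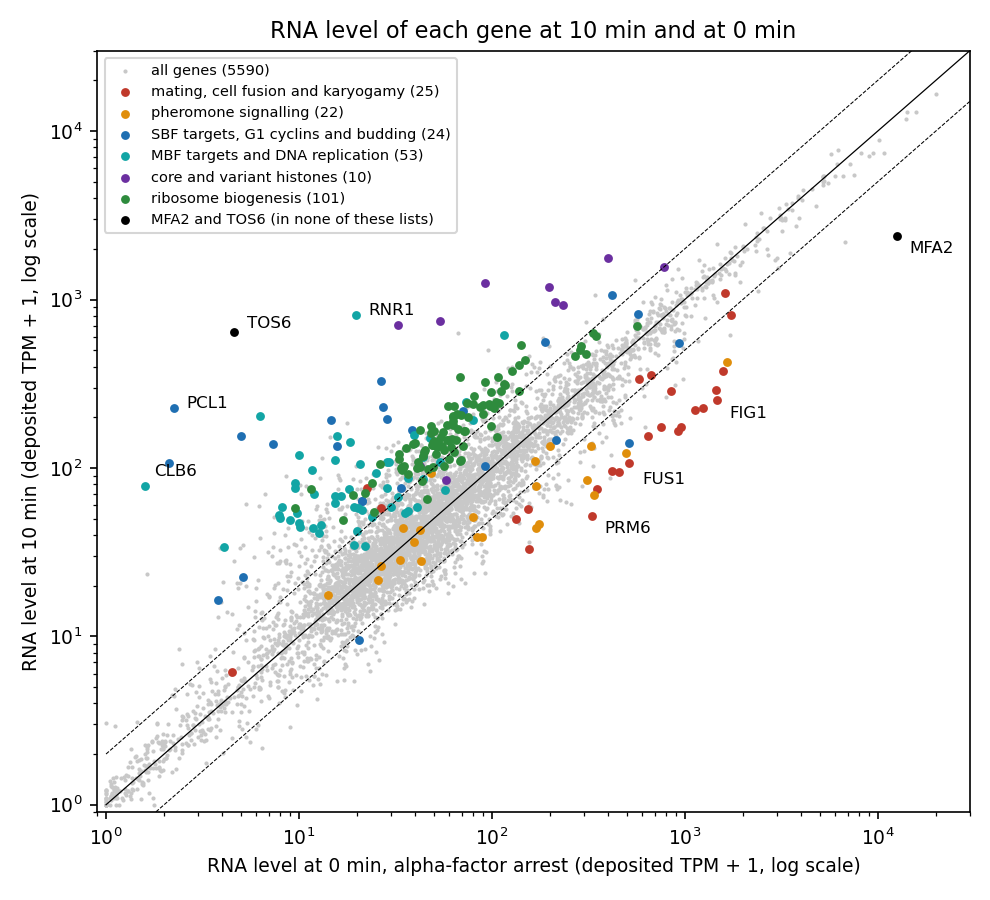
RNA level (deposited TPM + 1, log scales) of each of the 5590 genes at 10 min (vertical) against 0 min (horizontal), with members of 6 gene lists in colour. The solid line marks equal levels and the dashed lines 2-fold differences. SBF and MBF targets, histone and ribosome biogenesis genes lie mostly above the upper dashed line, and mating genes mostly below the lower one.

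These counts exceeded those of every later interval. The steps were not equally long, since by its labels the first spans 20 min in Replicate 1 and each later one 10 min. What this adds to the first step was not tested. Among the other 13 steps of aligned time, the most calls were 75 higher genes between 50 and 60 min and 35 lower genes between 20 and 30 min. The interquartile range of the RNA difference was 0.67 in the step from arrest and at most 0.25 in a later step. For 3063 genes (54.8%) this was the largest RNA step of all 14. Chromatin was less dominated by it. The step was the largest of the 14 in 24.0% of genes for entropy, 19.6% for the nucleosome score and 9.41% for the promoter subnucleosome score.

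**Figure D2:**
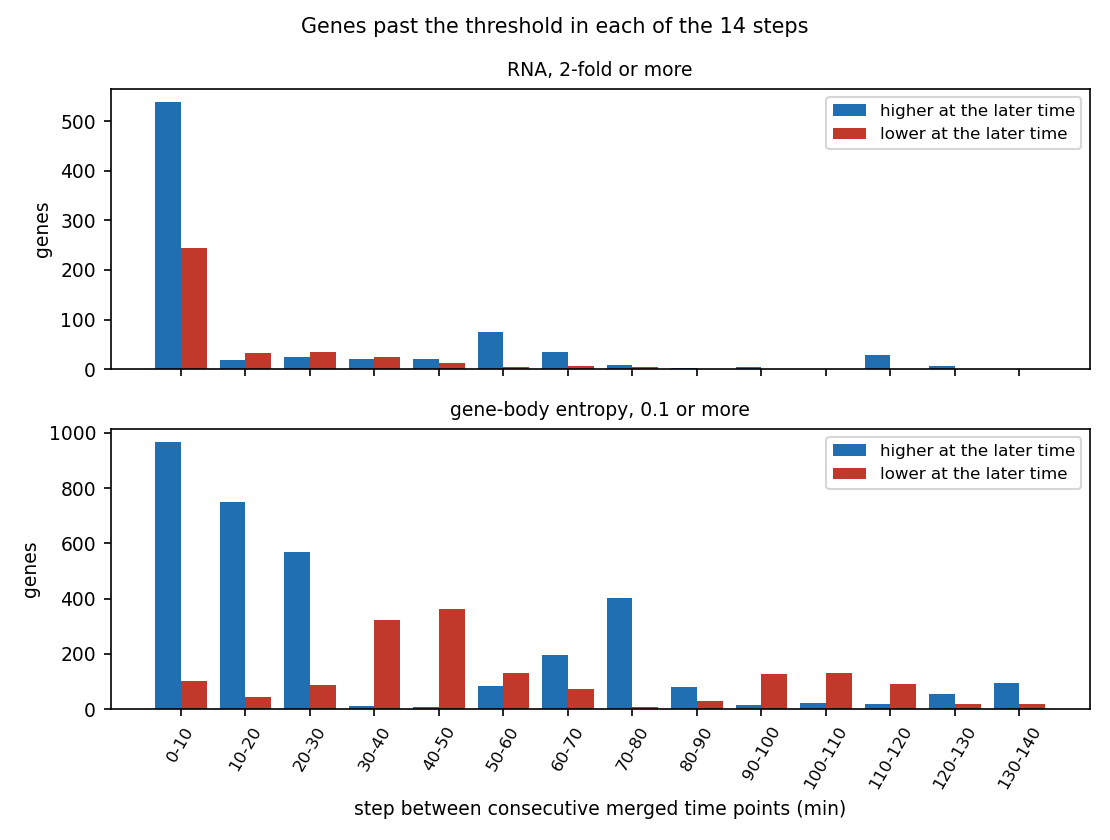
Number of genes past the threshold in each of the 14 steps between consecutive merged time points, with RNA (2-fold) in the upper panel and gene-body entropy (0.1) in the lower panel. Blue bars count genes higher at the later time and red bars genes lower. RNA calls are most numerous in the step from 0 to 10 min, with 538 higher and 244 lower genes. No later step has more than 75 higher or 35 lower. Higher entropy calls of the step from 0 to 10 min, 966 genes, are followed by 750 and 570 in the next steps.

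The genes of mating itself fell furthest. In a list of 25 genes for mating, cell fusion and karyogamy, 19 were lower at 10 min and 2 were higher, with a median difference of -2.11. FIG1, a membrane protein needed for mating, had 253 TPM at 10 min and 1464 TPM at 0 min. FUS1, which acts in cell fusion, had 105 TPM at 10 min, against 516 TPM at 0 min. PRM6, the largest fall in the data, had 50.7 TPM at 10 min and 330 TPM at 0 min. KAR4, a partner of Ste12 at genes for nuclear fusion, had 175 TPM at 10 min and 950 TPM at 0 min. The differences were -2.36 for PRM1 and -2.27 for FUS2, both of cell fusion, and -2.45 for PRM3 and -2.23 for KAR5, both of nuclear fusion. KAR3, the kinesin motor of karyogamy, had -1.44 and its partner CIK1 had -2.14.

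The subunits of the a-agglutinin differed in size of change. AGA2, the binding subunit, had 375 TPM at 10 min and 1572 TPM at 0 min, a difference of -2.06. Its anchor subunit AGA1 had 338 TPM at 10 min and 577 TPM at 0 min, and FIG2 had 354 TPM at 10 min and 670 TPM at 0 min, both inside the 2-fold limits. The members called higher were SPA2 (75.5 TPM at 10 min, 21.4 TPM at 0 min) and PEA2 (56.7 TPM at 10 min, 25.7 TPM at 0 min). Both encode polarisome proteins, which act at growing buds as well as at mating projections.

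The signalling pathway upstream of these genes was lower in part. Of 22 pheromone signalling genes 10 were lower and none was higher, with a median of -0.63. The receptor gene STE2 had 425 TPM at 10 min and 1650 TPM at 0 min, and SST2, which shuts off the G protein, had 122 TPM at 10 min and 493 TPM at 0 min. FAR1 had 67.9 TPM at 10 min and 338 TPM at 0 min. The difference was -1.27 for GPA1 and -1.12 for STE18, both G protein subunits, -1.87 for the MAP kinase gene FUS3 and -1.10 for STE12 itself. The kinases in the middle of the cascade were nearly level, with differences of -0.25 for STE11 and -0.02 for STE7. MSB2 had the most positive value, 0.94, and did not reach the call.

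Cell identity could be read from the same table. Of 7 a-specific genes 6 were lower at 10 min, all but BAR1. The pheromone genes MFA1 and MFA2 had 2182 and 2373 TPM at 10 min and 6797 and 12619 TPM at 0 min. BAR1, disrupted by its label, had 2.50 TPM at 10 min and 1.898 TPM at 0 min. Of the genes particular to α cells, STE3 and both α-factor genes were at 1.46 TPM or less at either time, and SAG1 had 16.7 TPM at 10 min and 19.9 TPM at 0 min. The markers thus matched the MATa label.

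Promoters of the mating genes held the letters of the pheromone response element more often than others. TGAAACA was sought on either strand in the 500 bases before the deposited transcription start. It was found in 12.3% of all 5590 promoters and in 14 of 25 promoters (56%) of the mating list. By RNA, it was in 26.2% of the 244 promoters of lower genes and in 66.7% of the 21 promoters of genes down 4-fold or more. All 4 genes with 3 or more matches were lower, as were 13 of the 43 with 2 matches. Here 2 promoters with several matches are shown from the R64 genome, 5′ to 3′ on the strand of the gene, with the matches in capitals (TGTTTCA is the same element on the other strand). PRM1 is on the plus strand at chrXIV:110672-110821, ending 95 bases before its start, and KAR4 is on the plus strand at chrIII:27731-27880, ending 43 bases before its start.
PRM1: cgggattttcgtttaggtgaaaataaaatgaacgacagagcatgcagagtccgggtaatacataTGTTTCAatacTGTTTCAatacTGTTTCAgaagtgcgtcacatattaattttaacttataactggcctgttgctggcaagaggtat
KAR4: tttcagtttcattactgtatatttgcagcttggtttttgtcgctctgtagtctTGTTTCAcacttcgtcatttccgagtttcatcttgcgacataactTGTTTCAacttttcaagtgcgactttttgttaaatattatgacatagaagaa
The matches of PRM1 stand in a row with 4 bases between neighbours, and those of KAR4 are farther apart. A match is a description of the letters only.

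Genes of Start rose as the mating genes fell. In a list of 24 SBF targets, G1 cyclins and budding genes, 18 were higher and 2 lower, with a median of 1.86. TOS6, a cell wall protein gene outside the list, had 642 TPM at 10 min and 3.61 TPM at 0 min, the largest rise in the data. The cyclin gene PCL1 had 227 TPM at 10 min and 1.26 TPM at 0 min. The G1 cyclin genes CLN1 and CLN2 had 138 and 194 TPM at 10 min and 6.34 and 27.6 TPM at 0 min. YOX1, a repressor of early cell cycle boxes, rose by 5.65 and TOS4, a chromatin-associated forkhead protein gene, by 4.95. Cell wall and glycosylation genes also rose, with 3.62 for SVS1, 3.09 for MNN1, a mannosyltransferase, and 1.33 for GAS1, a glucan remodelling enzyme.

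The exceptions in this list were PCL2 and HO. PCL2, another cyclin gene of the Pho85 kinase, had 140 TPM at 10 min and 516 TPM at 0 min. HO, the mating type switching endonuclease, had 8.45 TPM at 10 min and 19.4 TPM at 0 min. EXG1, a glucanase gene, and CHS3, a chitin synthase gene, had differences of -0.76 and -0.56, inside the 2-fold limits.

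MBF targets and replication genes moved as a block. Of 53 genes 45 were higher and none was lower, and all 53 differences were positive, with a median of 1.92. RNR1, the large subunit of ribonucleotide reductase, had 806 TPM at 10 min and 18.6 TPM at 0 min. The S phase cyclin genes CLB6 and CLB5 had 76.9 and 79.9 TPM at 10 min and 0.60 and 8.52 TPM at 0 min. MCD1, the cohesin subunit also called Scc1, had 202 TPM at 10 min and 5.28 TPM at 0 min. Among the polymerases, POL1 rose by 3.59, POL2 by 2.45 and POL3 by 2.06, and the sliding clamp gene POL30 by 2.40. The thymidylate synthase gene CDC21 rose by 2.95. The 8 members that were not called lay between 0.37 for RFC2, a clamp loader subunit, and 0.97 for CDC8, thymidylate kinase.

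Of 12 regulators of Start 3 were higher and 1 was lower. The higher ones were SWI4 (60.4 TPM at 10 min, 12.9 TPM at 0 min), STB1 (26.2 TPM at 10 min, 6.84 TPM at 0 min) and NRM1, the MBF corepressor (32.8 TPM at 10 min, 3.11 TPM at 0 min), and FAR1 was lower. SWI6 and MBP1 differed by 0.25 and 0.13. The upstream cyclin gene CLN3 was at -0.30, and the repressor gene WHI5 at 0.79.

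Motifs of both factors were more frequent in their own lists. ACGCGT, the MluI cell cycle box, was present in 5.96% of all promoters, in 46.1% of those of the 102 genes up 4-fold or more and in 69.8% of the MBF list. CACGAAA and CGCGAAA, the letters of the SBF box and a variant of it, were in 7.28% and 6.26% of all promoters, in 41.7% and 70.8% of the SBF list and in 11.3% and 22.6% of the MBF list. ACGCGT was also in 33.3% of the SBF list. Of the 36 genes with 2 copies of ACGCGT, 27 were higher and none was lower. With 0, 1 and 2 copies of ACGCGT the share of higher genes was 8.14%, 27.7% and 75%. For the SBF letters this share also rose from 0 to 2 copies. It was 8.19%, 29.4% and 54.2% (13 of 24) for CGCGAAA, and 9.22%, 14.1% and 31.25% (5 of 16) for CACGAAA. With 3 or more copies there were only 3 genes for CGCGAAA, 1 higher and 1 lower. For CACGAAA there were 2, with 0 higher and 1 lower, too few to read a trend. The following stretches, again from R64 and on the strand of the gene, show the spacing of such matches (capitals) in genes of the largest rises. RNR1 is at chrV:298453-298602 on the plus strand and CLB6 at chrVII:706817-706966 on the minus strand, both for ACGCGT. CSI2 at chrXV:312622-312771 on the minus strand and PCL1 at chrXIV:87514-87663 on the plus strand are shown for the SBF letters, which read TTTCGTG and TTTCGCG on the other strand.
RNR1: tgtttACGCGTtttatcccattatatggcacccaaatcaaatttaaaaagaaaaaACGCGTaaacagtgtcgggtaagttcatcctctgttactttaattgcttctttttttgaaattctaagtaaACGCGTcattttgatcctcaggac
CLB6: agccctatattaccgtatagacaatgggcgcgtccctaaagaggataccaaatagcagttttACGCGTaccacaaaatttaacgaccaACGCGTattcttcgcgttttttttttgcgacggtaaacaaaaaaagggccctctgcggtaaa
CSI2: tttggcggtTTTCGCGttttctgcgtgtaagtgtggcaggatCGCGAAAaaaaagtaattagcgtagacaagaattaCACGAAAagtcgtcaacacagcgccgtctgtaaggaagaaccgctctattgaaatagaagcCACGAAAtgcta
PCL1: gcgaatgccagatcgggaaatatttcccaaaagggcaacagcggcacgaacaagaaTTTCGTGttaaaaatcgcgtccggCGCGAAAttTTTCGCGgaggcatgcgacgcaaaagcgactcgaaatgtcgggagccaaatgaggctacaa
RNR1 was the only promoter of the 5590 with 3 or more matches of ACGCGT and carried 4, of which 3 are shown.

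Histone RNA was already high at 10 min. Of 10 histone genes 9 were higher and none was lower, with a median of 2.16, and the exception was HTZ1, the variant H2A.Z, at 0.56. HTB2 and HTA2, the divergent H2B and H2A pair, had 708 and 740 TPM at 10 min and 31.8 and 52.8 TPM at 0 min. The H4 genes HHF1 and HHF2 had 1257 and 1760.4 TPM at 10 min and 91.3 and 399 TPM at 0 min. The H3 gene HHT2 had 1561 TPM at 10 min and 777 TPM at 0 min, the smallest fold among the core histones. This call was lost, leaving 8 of 10, with a pseudocount of 10, with equal upper quartiles and when centred on all genes. Reads of near-identical histone copies may be split between them, so that the levels of single copies are uncertain.

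**Figure D3:**
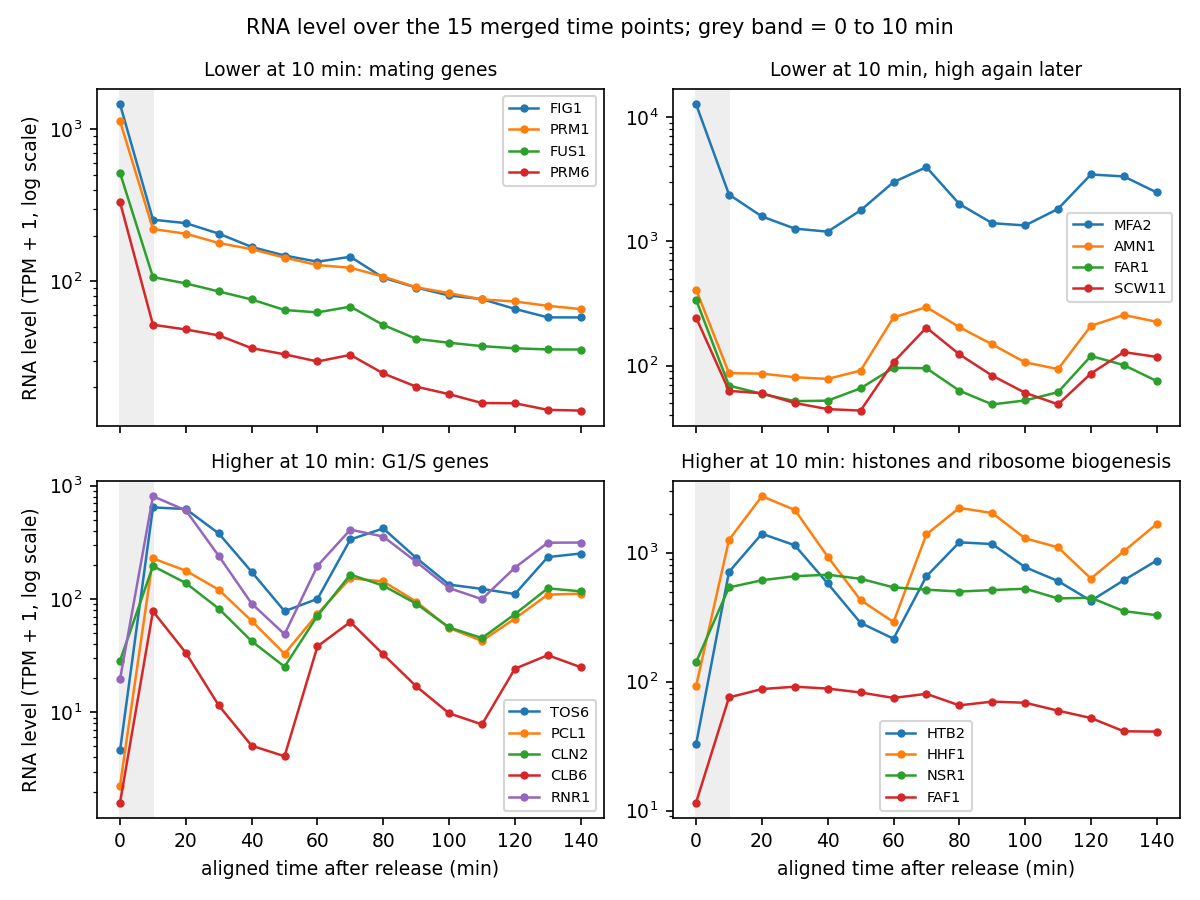
RNA level (TPM + 1, log scale) over the 15 merged time points for 17 genes in 4 panels, with the interval from 0 to 10 min shaded. FIG1, PRM1, FUS1 and PRM6 drop in the shaded interval and go on declining, MFA2, AMN1, FAR1 and SCW11 come back at about 60 to 70 and 120 to 130 min, and the G1/S genes peak at 10 min and return at about 70 to 80 min.

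The later course set these groups apart. PCL1 had 1.26, 227, 177 and 31.8 TPM at 0, 10, 20 and 50 min, so its highest value was that of 10 min. RNR1 had 18.6, 806, 604 and 47.9 TPM at the same times. For HHF1 the values were 91.3, 1257, 2738 and 427 TPM, so that its highest value was that of 20 min. FIG1 had 1464, 253, 240 and 147 TPM and reached 56.8 TPM at 140 min. MFA2 had 12619, 2373, 1580 and 1770 TPM and then 3939 TPM at 70 min, its highest value after the arrest.

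Growth genes rose together with the G1/S genes. All 101 ribosome biogenesis genes had a positive difference, 84 of them were higher, and the median was 1.46. NSR1, nucleolin of yeast, had 537 TPM at 10 min and 140 TPM at 0 min. FAF1 and DHR2, which act in making the small subunit, rose by 2.71 and 2.60, the most in the list. Of 22 genes for RNA polymerases I and III 13 were higher and all 22 were positive, among them RPA190, the largest subunit of polymerase I, with 394 TPM at 10 min and 164 TPM at 0 min. MAF1, a repressor of polymerase III, had the smallest difference of that list, 0.23.

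Ribosomal protein genes did not follow them in RNA. Among 135 cytosolic ribosomal protein genes 1 was higher, RPL22B (369 TPM at 10 min, 158 TPM at 0 min), and the median was 0.03. Many of these genes have near-identical copies, so that single values are uncertain. Mitochondrial ribosomal protein genes, 65 in all, had a median of 0.10 and no call. With equal upper quartiles both medians changed sign, to -0.11 for the cytosolic and -0.04 for the mitochondrial list.

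GATGAG, the core of the PAC element of ribosome biogenesis genes, was present in 94.1% of the ribosome biogenesis promoters, in 58.0% of promoters of higher genes and in 29.6% of all promoters. Of 56 genes with 3 or more matches 29 were higher and none was lower. DBP9, an RNA helicase gene of the large subunit, is shown because 4 matches lie just before its start (R64, chrXII:696927-697076, minus strand, matches in capitals as CTCATC on the other strand, neighbouring matches sharing a base).
DBP9: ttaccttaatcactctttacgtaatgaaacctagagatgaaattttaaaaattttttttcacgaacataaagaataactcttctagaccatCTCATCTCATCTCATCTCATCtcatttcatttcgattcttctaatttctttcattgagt
The stretch ends at the base before the deposited start.

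Sulfur and proteasome genes moved down. Of 23 genes of sulfate assimilation and methionine synthesis 11 were lower and none was higher, with a median of -0.998. MET17, homocysteine synthase, had 564 TPM at 10 min and 1174 TPM at 0 min, and the transporter gene MUP1 139 TPM at 10 min and 330 TPM at 0 min. CACGTG, bound by Cbf1, was in 69.6% of the promoters of the sulfur list and in 6.80% of all, but in only 6.56% of those of lower genes. TGACTC, the letters of Gcn4, was in 43.5% of the sulfur list and in 13.5% of all. None of 33 proteasome genes passed 2-fold, yet all 33 differences were negative, from -0.68 to -0.14.

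**Figure D4:**
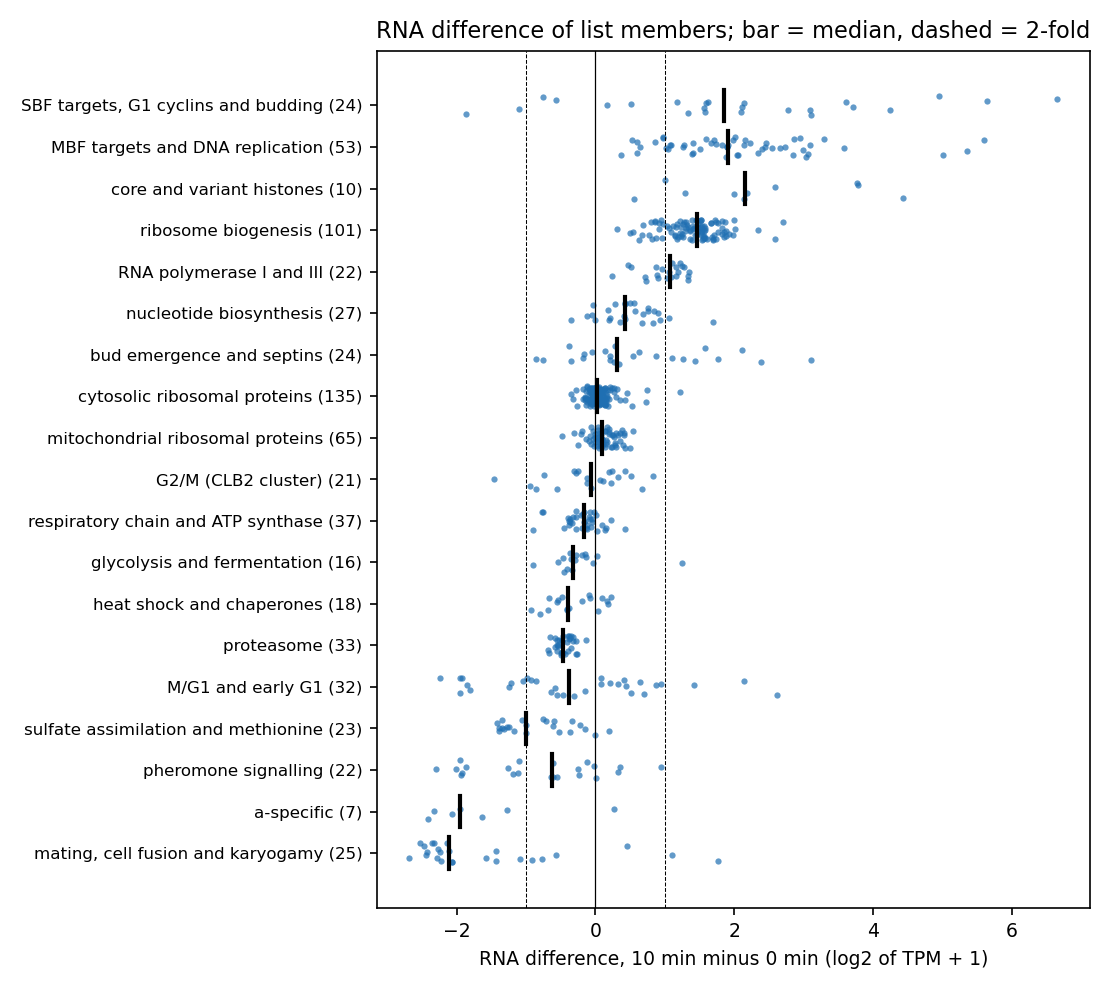
RNA difference between 10 min and 0 min (log2 of TPM + 1) of each member of 19 gene lists, with the number of members in brackets. Points are genes, thick bars are medians and dashed lines mark 2-fold. Medians run from 2.16 for histones to -2.11 for mating genes, and the ribosomal protein lists lie at 0.03 and 0.10.

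Genes of the end of the previous cycle were more often lower than all genes, but not more often higher. Of 32 M/G1 and early G1 genes 9 (28.1%) were lower and 3 (9.38%) higher. Over all genes these shares were 4.36% and 9.62%. AMN1, an antagonist of mitotic exit, had 85.9 TPM at 10 min and 408 TPM at 0 min, and SCW11 and CTS1, which act in the separation of daughter cells, had 61.6 and 183 TPM at 10 min and 242 and 426 TPM at 0 min. CDC6, the helicase loader, had 27.2 TPM at 10 min and 3.61 TPM at 0 min, and rose with SWI4 and the cell wall gene CIS3. The 6 genes MCM2 to MCM7 of the helicase had differences of 0.09 (MCM5) to 0.95 (MCM6), none past 2-fold. Among 21 G2/M genes 1 was called lower (4.76%, near the share over all genes) and none higher. It was SPO12, which had 76.6 TPM at 10 min and 214 TPM at 0 min. CLB2, the main mitotic cyclin gene, had 12.1 TPM at 10 min and 8.12 TPM at 0 min.

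Of 24 bud site and septin genes 8 were higher and none was lower. The Ras-like RSR1, the kinase GIN4 and the formin BNR1 rose by 2.12, 3.10 and 1.44. The septin genes CDC3, CDC10, CDC11 and CDC12 lay between -0.17 and 0.21. AXL1 and GIC2 had the lowest differences, -0.85 and -0.75.

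Nutrient and stress lists differed in their share of calls, which over all genes was 9.62% higher and 4.36% lower. These shares were 20% and 4% in the stress list and 12.5% and 12.5% in the phosphate list. They were 15% and 0% in the iron and copper list and 8.70% and 17.4% in the cell wall integrity list. Of 19 hexose transport genes 3 (15.8%) were lower and none was higher. YGP1 and HSP12, genes of the stress and stationary phase response, had 184 and 498 TPM at 10 min and 16.7 and 94.3 TPM at 0 min, and 5 of 25 stress genes were higher and 1 lower. SIT1, a siderophore transporter gene, had 33.9 TPM at 10 min and 4.14 TPM at 0 min, and 3 of 20 iron and copper genes were higher. The phosphate transporter gene PHO84 had 1058 TPM at 10 min and 342 TPM at 0 min. Of 16 glycolytic genes 14 had a negative difference, with a median of -0.32, none was called lower and TDH1 was called higher. Heat shock, respiration and amino acid lists had 0, 0 and 2 calls among 18, 37 and 52 genes. The heat shock median was -0.39 with 13 of 18 genes negative, and 30 of 37 respiration genes were negative, whereas 12 of 16 phosphate genes were positive. In the cell wall integrity list 4 of 23 were lower, among them CHS1 (142 TPM at 10 min, 370 TPM at 0 min) and SLT2, the MAP kinase of that pathway (160 TPM at 10 min, 356 TPM at 0 min), and 2 were higher.

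Chromatin was measured over gene bodies by entropy, which is low where nucleosomes sit at fixed positions and high where their positions vary. The median was 5.79 at 10 min and 5.74 at 0 min, and 4388 genes (78.5%) had a higher value at 10 min, with a median difference of 0.043. Differences of 0.1 or more were found upward in 966 genes, 17.3% of the total, and downward in 102 genes, 1.82%. Centred on the median of all genes, the counts were 379 upward and 275 downward. Among genes above the lower quartile of the nucleosome score, TOS4 and SPT21, a regulator of histone genes, gained most. They had 5.69 and 6.12 at 10 min and 5.20 and 5.64 at 0 min. FUR4, the uracil permease, gained 0.37. The largest loss was that of HYM1, a gene of the daughter-specific RAM network, at 5.79 at 10 min and 6.16 at 0 min, and its RNA also fell, to 76.6 TPM at 10 min against 291 TPM at 0 min. PRM6, FIG1 and KAR5 lost 0.35, 0.33 and 0.32.

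Entropy moved more in genes that were ordered in the arrest. Of the 1118 genes with the lowest values at 0 min 29.1% gained 0.1 or more, and of the 1118 with the highest 4.11%. The difference and this ranking share the 0 min value. Genes less than 5 kb from an annotated origin had a median difference of 0.046 and 19.5% of them gained 0.1 or more. For genes 5 to 10, 10 to 15, 15 to 20, 20 to 25 and 25 to 30 kb away that share was 19.7%, 15.8%, 16.6%, 13.5% and 15.1%. The medians in the same order were 0.044, 0.041, 0.047, 0.041 and 0.037, so that they did not fall steadily with distance. Within 10 kb of a centromere the median was 0.059 and the share 25.3%, against 16.7% beyond 100 kb.

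The nucleosome score, which rises with the number of fragments that match a positioned nucleosome, was called at a log2 ratio of 0.5. The study corrected nucleosome scores for DNA copy number, but whether this holds for the gene-body values, and over which stretch of a gene score and entropy were taken, is not stated. It was higher in 30 genes (0.537%) and lower in 20 (0.358%). The gains were led by mating genes. FUS1 had a score of 0.0595 at 10 min and 0.0250 at 0 min, FIG1 0.1005 at 10 min and 0.0463 at 0 min, and PRM6 0.0704 at 10 min and 0.0367 at 0 min. FIG2 gained 0.91 in log2 ratio, with an RNA difference of -0.92, just inside the 2-fold limits. In the mating list 12 of 25 genes were higher by this rule and none was lower. The losses were led by RNR1, at 0.0352 at 10 min and 0.0624 at 0 min, with CLB5 and CLB6 at log2 ratios of -0.62 and -0.58. YOX1, whose scores were low, had -0.77. FCY2, a purine and cytosine permease gene, had -0.60. The small gene YGL188C-A had -0.66 with RNA at 10.8 TPM at 10 min and 7.36 TPM at 0 min.

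These scores did not all return. FUS1 had scores of 0.0250, 0.0595, 0.0653 and 0.0731 at 0, 10, 20 and 140 min, and FIG1 had 0.0463, 0.1005, 0.0952 and 0.101. RNR1 had 0.0624, 0.0352, 0.0469 and 0.0626, and had regained its arrest level by 50 min, at 0.0633. FUS1 and FIG1 thus stayed above their arrest level throughout, while RNR1 came back to it.

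In promoters, fragments shorter than a nucleosome were scored, which mark bound proteins or open stretches. The window and scaling of this score are not stated, and the column sums were 151 at 10 min and 157 at 0 min. At a log2 ratio of 1 the score was higher in 6 genes (0.107%) and lower in none (0%). RNR1 led with 0.0376 at 10 min and 0.0110 at 0 min, followed by CLB6 with 0.0184 at 10 min and 0.00623 at 0 min. TOS6 and HIF1, a histone chaperone gene, both had ratios of 1.43, and HIF1 RNA was 68.5 TPM at 10 min and 9.27 TPM at 0 min. YPL014W had 1.11, and RRT15 was near 0 at both times, so that its ratio cannot be read. When genes below the lower quartile of the mean score were left out, RNR1 alone of the 6 remained. On the falling side KAR4 had 0.0357 at 10 min and 0.0669 at 0 min, a ratio of -0.91. PRM5, a cell integrity gene that is also in the mating list, had -0.74.

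CIK1 went against its RNA. Its promoter score was 0.0677 at 10 min and 0.0393 at 0 min, a ratio of 0.79, while its RNA was 94.7 TPM at 10 min and 420 TPM at 0 min. The start of the divergent gene VTI1 lies 234 bp away, and whether the scored windows overlap is not known. VTI1 had a promoter score ratio of 0.72 with RNA at 106 TPM at 10 min and 172 TPM at 0 min. The CIK1 score stayed up in the next steps, with 0.0393, 0.0677, 0.0675 and 0.0708 at 0, 10, 20 and 50 min.

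**Figure D5:**
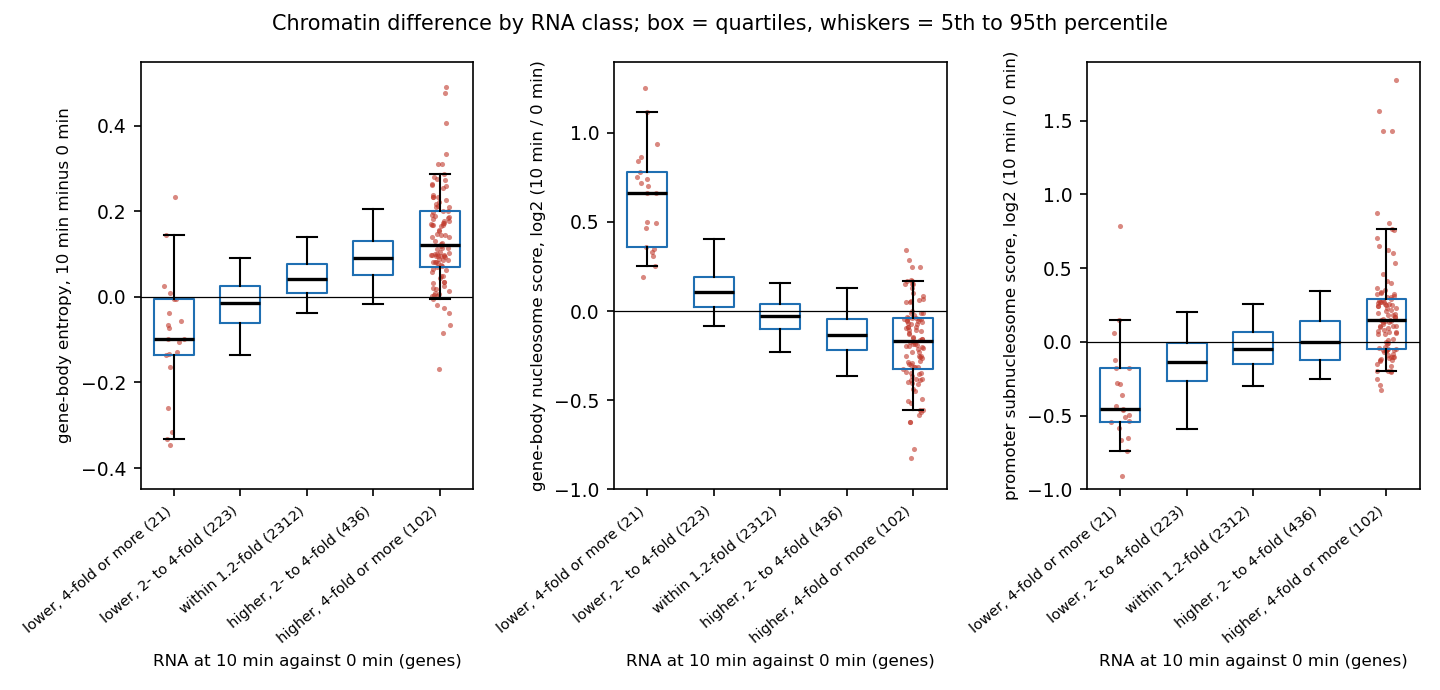
Difference between 10 min and 0 min in gene-body entropy, gene-body nucleosome score (log2 ratio) and promoter subnucleosome score (log2 ratio) for 5 classes of genes by their RNA difference, with the number of genes in brackets. Boxes give quartiles, thick lines medians and whiskers the 5th to 95th percentile, and red points are single genes of the small classes. The median nucleosome score ratio runs from 0.66 in the 21 genes lower 4-fold or more to -0.17 in the 102 genes higher 4-fold or more.

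The class medians of the chromatin measures followed the RNA difference in order. The median entropy difference was 0.121 in the 102 genes up 4-fold or more, 0.098 in the 538 higher genes, 0.042 in those within 1.2-fold, -0.018 in the 244 lower genes and -0.097 in the 21 genes down 4-fold or more. For the nucleosome score the medians in the same order were -0.17, -0.14, -0.03, 0.12 and 0.66. All 21 of the genes down 4-fold or more had a higher score at 10 min, and 18 of them were in the pheromone, mating or a-specific lists. The promoter score medians in this order were 0.15, 0.02, -0.05, -0.15 and -0.46. The 2-fold classes include the 4-fold ones. In genes 2- to 4-fold higher the entropy, nucleosome and promoter medians were 0.091, -0.13 and -0.002. In genes 2- to 4-fold lower they were -0.015, 0.11 and -0.14. Over the 5590 genes the RNA difference had Pearson's r of 0.43 with entropy, -0.44 with the nucleosome score and 0.24 with the promoter score, and Spearman's coefficients of 0.37, -0.39 and 0.22. The genes are not independent and share their libraries, and most genes lie near 0 in all measures.

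For comparison with the lists, 78.5% of all genes had a higher entropy at 10 min than at 0 min, 40.4% a higher nucleosome score and 38.4% a higher promoter score. Entropy was up by 0.1 or more in 17.3% of all genes. In the ribosome biogenesis list all 101 genes had higher entropy, 56 by 0.1 or more, and 88 had a lower nucleosome score. The cytosolic ribosomal protein genes, level in RNA, had 68 of 135 genes with entropy up by 0.1 or more and a lower nucleosome score in 127, with a median ratio of -0.22, although their RNA median was 0.03. In mitochondrial ribosomal protein genes, also level in RNA, 8 of 65 gained 0.1 in entropy and the median ratio was -0.02. Among MBF targets entropy was up by 0.1 or more in 28 of 53 and the nucleosome score was below its 0 min value in 51, and the promoter score above it in 37. Sulfur genes had a nucleosome score above the 0 min value in 18 of 23. In proteasome genes the promoter score was below its 0 min value in 30 of 33, a direction most genes shared.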

How the data were processed

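Total RNA-seq and MNase-seq libraries of W303 yeast were compared at 10 min and 0 min of aligned time. The authors aligned reads to R64 (sacCer3) with Bowtie 0.12.7. MNase-seq fragments with a unique position were thinned so that each length was equally frequent across the libraries of a replicate. Matched time points of both replicates were then merged; for RNA the way of merging is not given in the sources used here. All 4 deposited tables were treated as scores, since the RNA values are named TPM but their counting is not described. The deposited nucleosome score is a cross-correlation with a model nucleosome, the entropy score is Shannon's, and the promoter subnucleosome score is not described. Depth per gene is unknown. The tables also hold the authors' deposited gene positions.

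Differences were log2(TPM + 1) for RNA, subtraction for entropy and log2 ratios otherwise, called at 1, 0.1, 0.5 (nucleosome) and 1 (promoter). Python 3.11.15, numpy 2.4.6, pandas 2.3.3 and matplotlib 3.10.9 were used. The calling code was run on simulated data whose changes were all set past the thresholds, with little or no noise. That run checks the counting only and says nothing on how reliable the calls are. Members and the 28 gene lists were chosen with earlier results of these data known. Named genes were list members, the 15 largest RNA rises and falls among genes of at least 20 TPM at either time, and promoters with the most matches of their list's motif. Also named were the 5 largest rises and falls of each chromatin measure. Those were taken among genes above the lower quartile of its score, or of the nucleosome score for entropy. Other genes in the text were chosen after their values were seen. Gene IDs matched the R64 annotation in 5587 cases. Without a stated strand setting, overlapping and antisense genes cannot be told apart. Other pseudocounts, scalings, thresholds and gene filters were tried.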

Additional observations from a re-analysis of the deposited data

How the results depend on the processing

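No paired analysis was possible because each deposited column already joins both replicates, and for that reason no replicate could be left out. With a pseudocount of 10 the lower RNA calls were 132, and the median of the MBF list was 1.58. A fold of 1.5 gave 963 higher and 689 lower genes, and a fold of 4 gave 102 and 21. For the genes up 2-fold, the medians of entropy, nucleosome score and promoter score were 0.121, -0.17 and 0.15 at a fold of 4, and 0.055, -0.11 and 0.069 when centred on all genes. For the genes down 2-fold they were -0.097, 0.66 and -0.46 at a fold of 4, and -0.061, 0.15 and -0.10 when centred.

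The median entropy difference was 0.045 as a mean and 0.96 in units of each gene's SD over the 15 times. Genes of at least 1000 bp gave 568 higher entropy calls. Centring gave 379 higher and 275 lower entropy calls, and a difference of 0.2 gave 100 and 18. Lower nucleosome score calls were 13 with equal sums, 13 when centred and 9 without genes below the lower quartile of the score. A ratio of 0.25 gave 158 higher and 294 lower genes. Promoter calls were 1 higher without genes below the lower quartile, and 53 higher and 48 lower at a ratio of 0.5.

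None of these counts and medians changed sign. In the other 51 alternatives counts stayed within 1.5 times and medians kept their sign, and the 30 RNA changes named by size stayed past 2-fold in all 120 alternatives. Among list medians, those of amino acid, general stress and cytosolic ribosomal protein genes became negative with equal upper quartiles (-0.11, -0.13 and -0.11) and when centred, and that of mitochondrial ribosomal protein genes (-0.04) with equal upper quartiles. Depth per gene is unknown and no replicate is separate, so that no error can be given for any value.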

Other observations

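Of the 31 genes up 8-fold or more, 19 were in the SBF, MBF or histone lists. Others are given here, chosen after their values were seen. PDS5, a cohesin regulator, had 88.7 TPM at 10 min and 7.59 TPM at 0 min, and ACM1, an inhibitor of the anaphase-promoting complex, had 153 TPM at 10 min and 13.6 TPM at 0 min. HPT1, which salvages purines, had 634 TPM at 10 min and 66.0 TPM at 0 min, and CHA1, which breaks down serine and threonine, had 114 TPM at 10 min and 12.2 TPM at 0 min.

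Several genes beside mating genes moved with or against their neighbours. PET494 lies 262 bp downstream of AGA1 on the same strand. Its RNA was 10.6 TPM at 10 min and 3.86 TPM at 0 min, its gene-body nucleosome score ratio was 0.86 and its promoter score ratio was -0.72, while AGA1 RNA was 338 TPM at 10 min and 577 TPM at 0 min. YCR090C is convergent with FIG2, and their annotated transcripts overlap by 74 bp. It had 49.4 TPM at 10 min and 13.3 TPM at 0 min, with a nucleosome score ratio of 0.97. NOT3 lies 376 bp downstream of PRM2 on the same strand, and its entropy fell by 0.29 while its RNA was 68.7 TPM at 10 min and 38.8 TPM at 0 min. TGS1, convergent with PRM4 and overlapping its transcript by 132 bp, had 31.4 TPM at 10 min and 7.001 TPM at 0 min. Downstream of the 21 genes lower 4-fold or more, 16 of 21 neighbours had a positive RNA difference, with a median of 0.44. Of these neighbours 3 were called lower (MST27, YJL171C and YNL144C) and 6 higher (CLN1, TGS1, SPB1, CIS3, HBN1 and RSA1). CLN1 and CIS3 are also among the risen genes of the SBF and M/G1 lists. The gap was 1114 bp for CLN1 and 2512 bp for SPB1. Over all 5568 genes with a downstream neighbour 3040 were positive, the median was 0.04, 535 were called higher and 241 lower. The neighbours were examined after these cases were seen. Counting with or without strand is not stated, so reads of convergent partners cannot be told apart.

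SPO16, a meiotic gene, was among the 15 largest rises, with 22.3 TPM at 10 min and 0.62 TPM at 0 min. The divergent gene RTT107, whose start lies 245 bp away, had 58.8 TPM at 10 min and 5.22 TPM at 0 min, and the SPO16 transcript overlaps that of the convergent gene SPO12 by 199 bp.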
